A study of Mus musculus with 7 samples.

Results

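The genes described here are the mouse ubiquitin conjugating enzymes, ubiquitin ligases, ligase adaptors and deubiquitinases whose symbols start with Ube2, Rnf, Trim, Ube3, Cul followed by a digit, Klhl, Fbxo, Fbxw or Usp. They were chosen by symbol among the protein-coding genes of the GENCODE M21 annotation of the mm10 mouse genome, and 355 of 22028 genes met the rule. These 355 genes are called the members below. Crosslinks of Argonaute, the protein that carries microRNAs, lay on the same strand as 141 members, at 384 of the 14054 positions in the table (2.73%, exact 95% Clopper-Pearson interval 2.47 to 3.02). The other 214 members had no position.

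The data are photoactivatable-ribonucleoside-enhanced crosslinking and immunoprecipitation (PAR-CLIP) of retinas from CD-1 mice at postnatal day 0. Argonaute was precipitated with antibody 2A8 for 5 libraries, and IgG served as the control for 2. Both groups shared the same culture and light: explants were kept for 24 h with 0.1 mM 4-thiouridine and 20% horse serum and then given 365 nm light at about 300 mJ/cm2. Each library pooled 6 retinas, so it holds every cell type of the explant, and fewer cells of a type and less RNA per cell cannot be told apart. The score of a position is the number of Argonaute libraries that hold its crosslink, and it ran from 2 to 5. The tables pool the Argonaute libraries, so the score is the only view of replicate spread, and values of single libraries and of the IgG control were not analysed here. Read depth and RNA abundance are unknown, and a member without a position is not shown to be unbound. Defining retinal genes were in the table, with crosslinks in 19 of 24 listed, among them Neurod1 with 24 positions and Pax6 with 7. Nrl, Rax, Ptf1a, Foxn4 and Pou4f2 were the 5 of these 24 without one. Of 22 genes that mark pigment epithelium, microglia, vessels, lens and other cells of the eye, 2 had crosslinks, Kdr with 5 positions and Pdgfra with 2.

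Ubiquitin is activated by an E1 enzyme, passed to an E2 enzyme (Ube2 symbols) and placed on a target protein by an E3 ligase. RING ligases (Rnf and most Trim symbols) bring the E2 to the target, HECT ligases (Ube3) take up the ubiquitin themselves, and cullin scaffolds (Cul) hold a RING subunit together with an adaptor that picks the target, such as Kelch proteins (Klhl) on Cul3 or F-box proteins (Fbxo, Fbxw) on Cul1. Deubiquitinases (Usp) take ubiquitin off again, and the balance sets how long many regulators of neuronal differentiation last. Argonaute finds its target RNA through the seed of the bound microRNA, bases 2 to 8, which pairs with a 7-base string in the RNA. A symbol prefix is no proof of enzyme activity for each gene.

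The microRNAs on which the results turn are printed first, because the crosslinked RNAs are read against their seeds. Sequences are mature microRNAs from RefSeq (GRCm38.p6), 5′ to 3′, with the seed in capitals.
let-7a-5p: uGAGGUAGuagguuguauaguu
miR-26a-5p: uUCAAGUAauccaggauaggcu
miR-30a-5p: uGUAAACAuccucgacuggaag
miR-9-5p: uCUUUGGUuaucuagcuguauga
miR-16-5p: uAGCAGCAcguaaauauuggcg
miR-92a-3p: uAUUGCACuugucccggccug
miR-182-5p: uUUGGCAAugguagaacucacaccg
miR-17-5p: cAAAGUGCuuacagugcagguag
miR-130a-3p: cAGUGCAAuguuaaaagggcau
miR-19b-3p: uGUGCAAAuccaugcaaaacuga
miR-216a-5p: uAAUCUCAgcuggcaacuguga
miR-216b-5p: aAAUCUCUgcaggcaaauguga
The seeds of miR-17, miR-130 and miR-19 are shifted copies of each other, so 1 stretch of RNA can match several of them. Those of miR-216a and miR-216b are spelled differently and were searched separately.

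The RNA at the crosslinks that carry most of the results follows, as 30 bases of the spliced GENCODE M21 transcript in mm10 coordinates. In each window the crosslinked base is base 11 unless stated otherwise, and capitals mark strings that match a seed. Trim6 is shown because its 3′ UTR repeats the same match.
Trim6, plus strand, chr7:104233507-104233536, 3 libraries: tgattatagctCTACCTCacagcacctgac
Trim6, plus strand, chr7:104233552-104233581, 4 libraries: tgattatagatCTACCTCacagtgcctgac
Trim6, plus strand, chr7:104233597-104233626, 5 libraries: tgattatagatCTACCTCacagcgcctgac
Trim6, plus strand, chr7:104233642-104233671, 2 libraries: tgattatagctCTACCTCacagcgcctgac
The capitals in all of these are the let-7 match CTACCTC, followed by the A that makes it an 8mer. The next set was found in all 5 Argonaute libraries and shows matches of other families that start just after the crosslinked base, in 3′ UTRs (Ube2j1, Rnf111) and in coding sequence (Usp9x, Rnf167).
Ube2j1, plus strand, chr4:33050510-33050539: tttttggatatTACTTGAagaggaaagact
Rnf111, minus strand, chr9:70426704-70426733: tgtattgcatttcTTTGCACatattatggg
Usp9x, plus strand, chrX:13156074-13156103: ggaaagagaatGTGCAATcaagttcaatga
Rnf167, plus strand, chr11:70650163-70650192: ggaaccgacttACCAAAGagcaactgaaac
Ube2j1 holds the match of miR-26 (TACTTGA), Rnf111 that of miR-19 (TTTGCAC), Usp9x that of miR-25/miR-92 (GTGCAAT) and Rnf167 that of miR-9 (ACCAAAG). The last set holds sites for the miR-216 family in 3′ UTRs.
Rnf6, minus strand, chr5:146209544-146209573, 5 libraries: aagatAGAGATTGTTTACtgaagcgtgtct
Rnf2, minus strand, chr1:151470364-151470393, crosslinked base 20, 3 libraries: accAGAGATTatggagatatTTTGCACTTT
Trim68, minus strand, chr7:102677874-102677903, 2 libraries: caagTGAGATTTGCTGCTaccaaacaaacc
Usp33, plus strand, chr3:152393104-152393133, 2 libraries: atgtgtcaaaTGAGATTgttgataaagctg
Ube2h, minus strand, chr6:30211497-30211526, 3 libraries: tattgtgtgaTACTTGAAGAGATaaaaggg
AGAGATT is the miR-216b match and TGAGATT that of miR-216a. In Rnf6 the miR-216b match runs into that of miR-30 (TGTTTAC), in Trim68 the miR-216a match runs into that of miR-15/miR-16 (TGCTGCT), and in Ube2h a shorter miR-216b match of 6 bases runs into that of miR-26.

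Crosslinks were found in 141 of 355 members (39.7%, interval 34.6 to 45.0), against 22.1% of all protein-coding genes (4867 of 22028). All intervals cover counting error only, and RNA abundance was not measured here. The share differed between the prefix families, and the plot of genes by prefix shows it. All 3 Ube3 genes had a crosslink, as did 33 of 57 Usp genes (57.9%, interval 44.1 to 70.9), 20 of 37 Ube2 genes (54.1%), 4 of 8 Cul genes, 40 of 86 Rnf genes (46.5%) and 14 of 36 Klhl genes (38.9%). Fbxo genes followed with 11 of 36 (30.6%), Trim genes with 13 of 69 (18.8%, interval 10.4 to 30.1) and Fbxw genes with 3 of 23 (13.0%, interval 2.78 to 33.6). The intervals of the Usp and Trim families do not overlap, while neighbours in this order overlap widely. Many of the Fbxw genes without a crosslink lie together on chromosome 9, and the intervals count such related genes as independent.

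**Figure D1:**
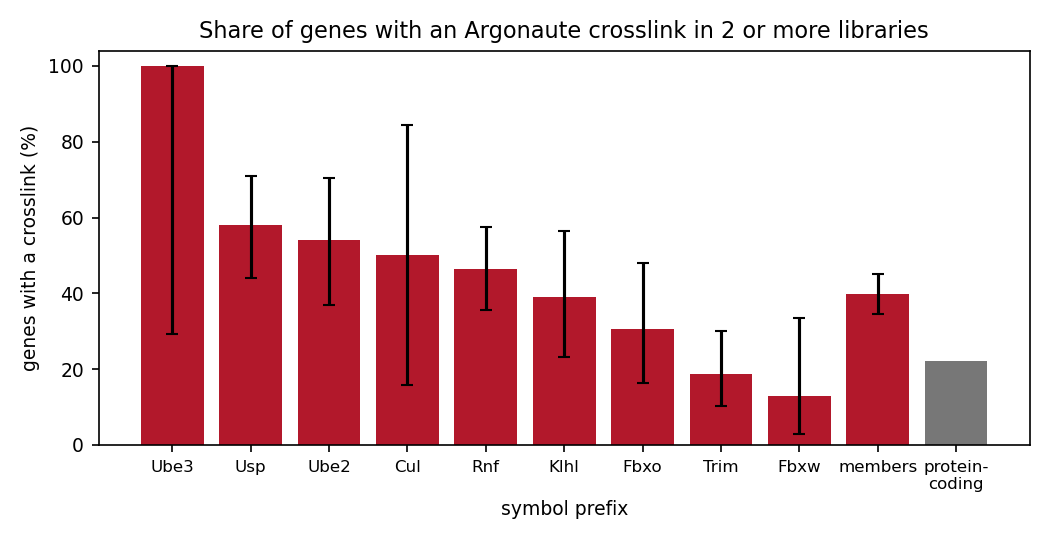
Share of genes (percent, vertical axis) with at least 1 Argonaute crosslink in 2 or more libraries, for the 9 symbol prefixes, all members and all protein-coding genes (grey). Bars are shares and lines exact 95% intervals; the members together stand at 39.7% and all protein-coding genes at 22.1%.

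The crosslinks of the members lay mostly in 3′ UTRs. There were 240 positions in 3′ UTRs (62.5%, interval 57.4 to 67.4), 108 in coding sequence (28.1%, interval 23.7 to 32.9), 33 in introns (8.59%), 2 in 5′ UTRs and 1 in a noncoding exon. Over the 13050 positions in all protein-coding genes, 56.1% lay in 3′ UTRs, 22.5% in coding sequence and 19.2% in introns. The members thus had a smaller share in introns than all genes. Of exonic positions alone, 240 of 351 in members (68.4%) lay in 3′ UTRs, against 69.5% in all protein-coding genes. Per length and over genes with a crosslink alone, the 141 members carried 0.817 positions per kb of 3′ UTR and 0.369 per kb of coding sequence, against 0.708 and 0.277 per kb in the 4867 protein-coding genes. Of the 141 crosslinked members, 105 had a position in the 3′ UTR, 21 had positions in coding sequence alone and 11 in introns alone. These counts were not made over all crosslinked protein-coding genes, so they are not shown to be particular to members. The 3′ UTR of the main transcript was 1661 nt at the median in those 105 members and 716 nt in the 214 members without a crosslink. The 105 members were picked by a position in the 3′ UTR itself, and crosslinked members without one are not in this comparison. UTR length was not held constant between members with and without crosslinks.

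Most positions were seen in few libraries. Of the 384 positions, 278 were in 2 libraries, 59 in 3, 31 in 4 and 16 in all 5 (4.17%, interval 2.40 to 6.68), against 3.50% in all 5 for all protein-coding genes. The share in 3 or more libraries was 27.6% for members and 25.5% for all protein-coding genes, and the interval for members, 23.2 to 32.4, holds that value. The 16 positions in all 5 libraries lay in 13 members (9.22% of those crosslinked, against 8.42% of all crosslinked protein-coding genes). Rnf111 had 3 of them and Klhl9 had 2. The median was 2 positions in the 141 crosslinked members and 2 in the 4867 crosslinked protein-coding genes, and the highest counts were 13 in a member (Ube3a) and 105 in any gene (Rorb, a nuclear receptor of retinal neurons). Counts of positions are not counts of separate sites. In 19 members, Rnf44, Trim2 and Usp31 among them, 30 pairs of neighbouring positions lay within 30 nt, 5 of them within 10 nt. Such pairs were not counted over all genes.

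**Figure D2:**
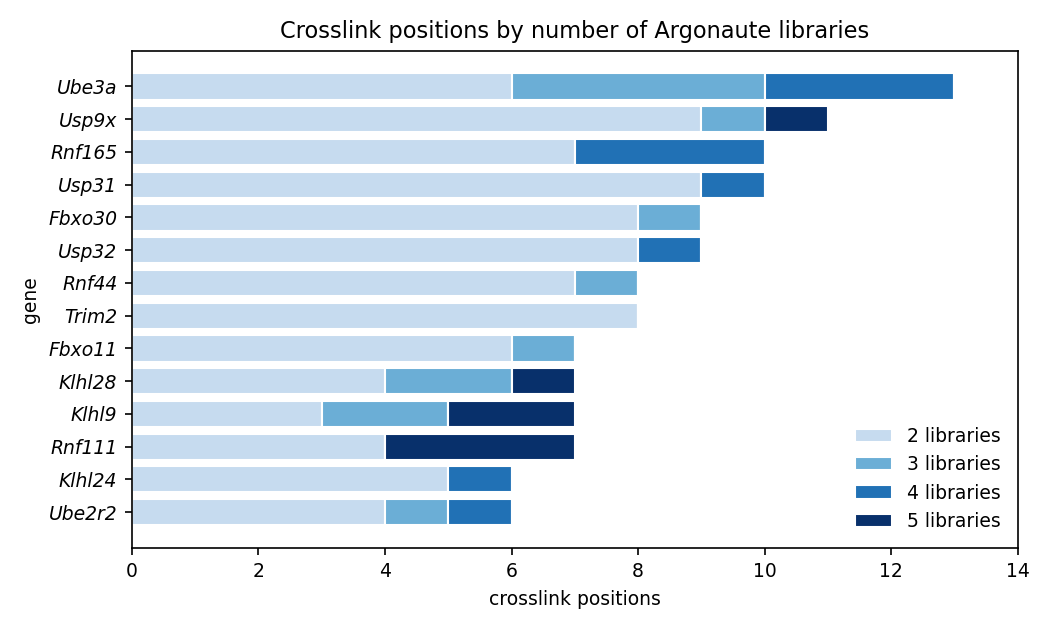
Number of crosslink positions (horizontal axis) in 14 of the 15 members with the most, coloured by the number of Argonaute libraries in which each position was found. Ube3a has the most positions, 13, none in all 5 libraries, while Rnf111 has 3 and Klhl9 has 2 in all 5.

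Among the E2 enzymes, 20 of 37 genes had 49 positions, 33 in 3′ UTRs and 9 in coding sequence, and 19 of the 49 were in 3 or more libraries. Ube2j1, an E2 anchored in the membrane of the endoplasmic reticulum, had a single position, in all 5 libraries, 560 nt into its 2403 nt 3′ UTR, with a miR-26 8mer starting 1 nt after the crosslinked base. Ube2e3 had a position in 5 libraries and another in 3, both in the 3′ UTR and both without a listed match. Ube2r2, an E2 of the Cdc34 type that works with cullin ligases, had 6 positions, in 2, 2, 3, 4, 2 and 2 libraries along the gene, and none of its 5 exonic windows held a listed match. The neighbouring Ube2r2 positions in 3, 4 and 2 libraries lay 16 and 23 nt apart and may not be separate sites. Ube2d1, an E2 used by many RING ligases, had 4 positions in 2, 2, 3 and 2 libraries, and a pair of them, 6 nt apart, shared 1 miR-26 match. Ube2b, of the Rad6 type, had 4 positions in 2, 4, 2 and 2 libraries, and the one in 4 libraries stood 1 nt before a miR-181 8mer. All 4 positions of Ube2b also lie within an intron of another gene on the same strand.

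Among RING ligases of the Rnf symbols, 40 of 86 genes had 108 positions, 76 in 3′ UTRs (70.4%) and 19 in coding sequence (17.6%), and 33 of the 108 were in 3 or more libraries. Rnf111, or Arkadia, which marks repressors of TGF-beta signalling for degradation, had 7 positions. In its 3′ UTR of 1561 nt they lay 233, 267, 783, 809, 871 and 1017 nt from the start and were found in 5, 5, 5, 2, 2 and 2 libraries, and the remaining position, in coding sequence in exon 6 of 15, was found in 2. Its positions in 5 libraries thus formed 1 pair 34 nt apart near the start of the UTR and a lone position further on. The miR-19 8mer printed above started 3 nt after the crosslink at 267 nt, while those at 233 and 783 nt held no listed 7mer. The 2-library positions at 809 and 1017 nt stood 1 nt before matches of miR-15/miR-16 and miR-153.

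Rnf6, a RING ligase with a role in axon growth, had 5 positions, all in its 3′ UTR of 1011 nt. They lay 287, 423, 444, 640 and 659 nt from the start and were found in 2, 2, 3, 5 and 4 libraries, so that the highest scores sat in the distal pair. All 5 windows held a listed match, and the matches covered 7 families. The position in 5 libraries stood 1 nt before a miR-30 match and overlapped the miR-216b match, the one in 4 libraries stood 1 nt before a miR-219 match, and the one in 3 libraries 1 nt before a miR-26 8mer. Windows 19 nt apart overlap, so the miR-30 match counts for both positions of the distal pair.

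Rnf165, a ligase of motor axons related to Rnf111, had 10 positions, 7 in the 3′ UTR in 2, 4, 4, 4, 2, 2 and 2 libraries and 3 in introns in 2 libraries each. Matches of miR-19 and miR-130 overlapped at 2 of its 3′ UTR positions, 1 in 4 libraries and 1 in 2. Rnf44, a RING ligase, had 8 positions, 7 of them in the 3′ UTR, and 1 in 3 libraries stood 1 nt before a miR-30 match. Rnf167, a membrane-bound RING ligase of endosomes and lysosomes, had 1 position each in the 5′ UTR (2 libraries), coding sequence (5 libraries, the miR-9 8mer above) and 3′ UTR (2 libraries, a miR-19 8mer). Rnf2, the ligase of Polycomb repressive complexes that marks histone H2A, had 2 positions, in 3 and 2 libraries.

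Of the 69 Trim genes, 13 had 29 positions, 22 of them in 3′ UTRs. Trim6, a ligase of interferon signalling, had 4 positions, 585, 630, 675 and 720 nt into its 3′ UTR of 2220 nt, in 3, 4, 5 and 2 libraries. They are spaced by exactly 45 nt, and each stands 1 nt before a let-7 8mer. The UTR holds 6 let-7 7mers in all, 5 of them 8mers at 541, 586, 631, 676 and 721 nt. The first of these 8mers, and the 7mer without the A at 1023 nt, had no crosslink in the table. The repeat units of 45 nt around the crosslinks were 75.6 to 95.6% identical, so reads may not be assigned to 1 unit with certainty and the scores of single units are uncertain. Trim6 thus supplied 4 of the 8 member windows with a let-7 match, and the others lay in Klhl23, Rnf115, Usp38 and Usp9x. Klhl23, Rnf115 and Usp38 were named after their values were seen.

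Trim2, a neuronal ligase that binds neurofilament light chain, had 8 positions, 7 of them in the 3′ UTR, and all were in 2 libraries. Trim32, a ligase studied in muscle and neural progenitors, had 1 position in 5 libraries, in a window rich in C and T without a listed match, and 1 in 2 libraries. Trim37 had 3 positions, and the one in 3 libraries stood 1 nt before a miR-17 match. Trim68 had 1 position, in 2 libraries.

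**Figure D3:**
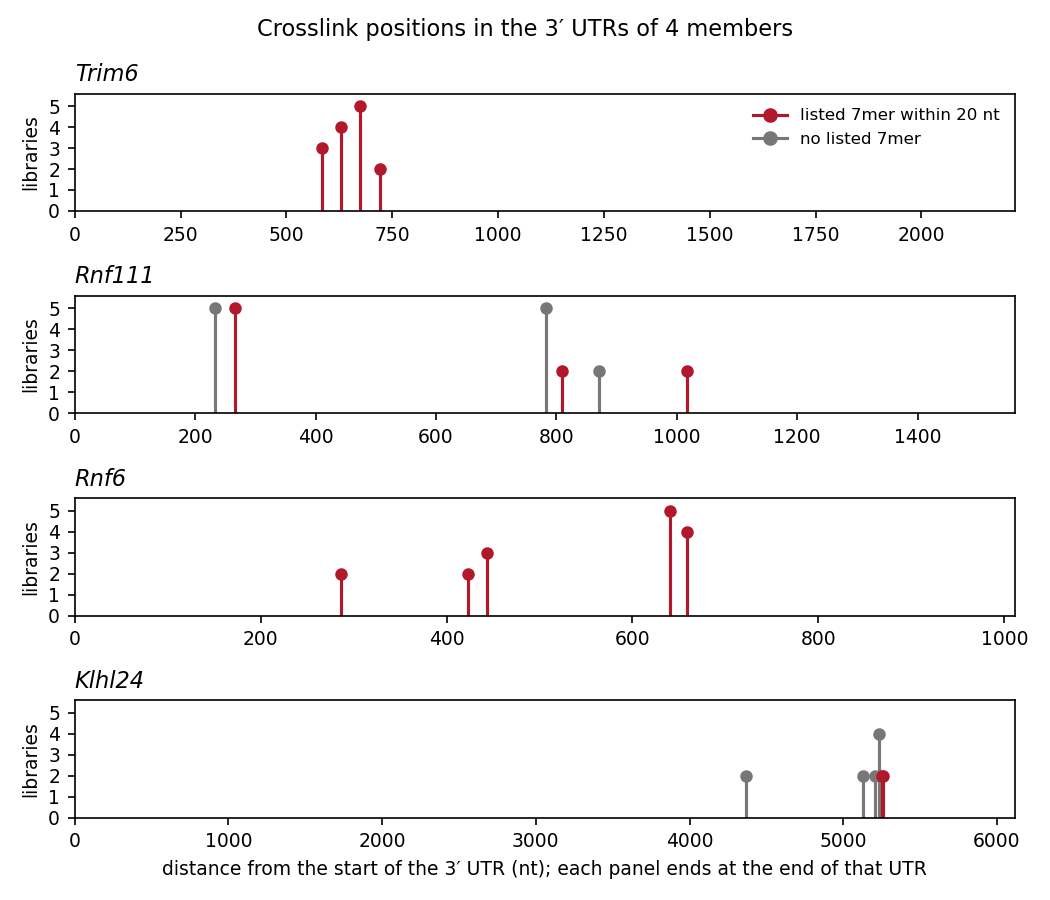
Crosslink positions in the 3′ UTRs of Trim6, Rnf111, Rnf6 and Klhl24, by distance from the start of the UTR (nt, horizontal axis) and number of Argonaute libraries (vertical axis). Red positions have a listed 7mer within 20 nt and grey ones have none; Trim6 shows 4 evenly spaced positions, and all 5 positions of Rnf6 are red.

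The HECT ligases Ube3a, Ube3b and Ube3c had 17 positions, 10 in 3′ UTRs and 7 in coding sequence, and 10 of the 17 were in 3 or more libraries. Ube3a, the ligase lost in Angelman syndrome, had 13 positions, 6 in coding sequence in 2, 3, 2, 3, 4 and 4 libraries and 7 in its 6606 nt 3′ UTR in 4, 2, 2, 3, 2, 3 and 2 libraries. Listed matches were found at 2 of its 13 windows, a miR-23 match in coding sequence and a miR-15/miR-16 match 4259 nt into the 3′ UTR, and all 4-library positions were without one. Ube3c had 3 positions, in 4, 3 and 3 libraries, and the one in 4 libraries, in coding sequence, stood 1 nt before a miR-17 8mer. Ube3b had 1 position, in 2 libraries.

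Of the cullin scaffolds, 4 of 8 genes had 8 positions, 5 of them in coding sequence, and none was found in more than 2 libraries. Cul3, the scaffold of Kelch adaptors, had 4, with a miR-181 8mer at 1 of them. Cul1, the scaffold of F-box proteins, had 2 and Cul4b had 1, all 3 in coding sequence and without a listed match.

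Of the Kelch adaptors, 14 of 36 genes had 42 positions, 28 in 3′ UTRs and 12 in coding sequence. Klhl28 had 7 positions, all in its 3′ UTR of 4617 nt, in 3, 2, 5, 2, 2, 3 and 2 libraries from the start of the UTR to its end. The last one stood 1 nt before a miR-30 8mer. Klhl9, an adaptor that acts on Aurora B in dividing cells, is a gene of 1 exon and had 7 positions, 6 in coding sequence in 2, 3, 2, 5, 5 and 3 libraries and 1 in the 3′ UTR in 2. Its 5-library positions lay 215 nt apart. Of these, 1 stood 1 nt before a miR-15/miR-16 8mer while the other had no listed 7mer. Klhl24 had 6 positions, all in the distal part of its 3′ UTR, in 2, 2, 2, 4, 2 and 2 libraries, and a pair 11 nt apart shared a miR-183 match.

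Of the F-box genes, 11 of 36 Fbxo genes had 27 positions and 3 of 23 Fbxw genes had 11. Fbxo30 had 9 positions, 3 in coding sequence and 6 in the 3′ UTR, and its only position in 3 libraries stood 1 nt before a miR-17 8mer in coding sequence. Fbxo11 had 7, 1 of them in 3 libraries. Fbxo5, or Emi1, an inhibitor of the anaphase-promoting complex, had 1 position, in 5 libraries, 357 nt into a 3′ UTR of 411 nt and without a listed 7mer. Fbxw11, a beta-TrCP protein, had 5 positions in 2, 3, 2, 4 and 2 libraries. Fbxw7, which marks cyclin E, Myc and Notch for degradation, had 4, all in 2 libraries, with miR-182, miR-101 and miR-15/miR-16 among the matches in its 3′ UTR. Fbxw2 had 2 positions, both in coding sequence, and the one in 3 libraries stood 1 nt before a miR-17 8mer.

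The deubiquitinases had 93 positions in 33 of 57 Usp genes, 45 in 3′ UTRs (48.4%) and 41 in coding sequence (44.1%), while 108 of 384 positions of all members (28.1%) and 22.5% of those of all protein-coding genes were in coding sequence. Per length, the 33 Usp genes with a crosslink carried 0.374 positions per kb of coding sequence and 0.663 per kb of 3′ UTR. All crosslinked members carried 0.369 and 0.817 per kb, and all crosslinked protein-coding genes 0.277 and 0.708 per kb. The member values include the Usp genes, which held 109674 nt of the 292689 nt of coding sequence and 41 of the 108 positions in it. Why Usp genes had a larger share in coding sequence was not tested. Usp9x, a large deubiquitinase on the X chromosome, had 11 positions, all in its 7665 nt of coding sequence and none in its 3844 nt 3′ UTR, in 3, 2, 2, 2, 2, 2, 2, 5, 2, 2 and 2 libraries along the gene. Around the position in 5 libraries, neighbouring positions of Usp9x lay 2, 16 and 20 nt apart and may not be separate sites. Listed matches stood at 6 of its 11 windows, of which a pair 20 nt apart read the same miR-25/miR-92 match, and the position in 5 libraries, in exon 35 of 45, was 1 nt before the miR-25/miR-92 match printed above. Usp22, the deubiquitinase of the SAGA coactivator complex, had 4 positions in 2, 4, 5 and 2 libraries, and the one in 5, in coding exon 3, overlapped a miR-182 8mer. Usp25 had 4 positions, all in the 3′ UTR, in 2, 2, 2 and 5 libraries. The 3 in 2 libraries held listed matches and the one in 5 did not. Usp31 had 10 positions, 9 of them in the 3′ UTR, with 1 in 4 libraries and the rest in 2. Usp32 had 9, with 1 in 4 libraries and the rest in 2. Usp33 had 4, in 4, 2, 2 and 2 libraries.

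Seeds of 40 microRNA families were searched in the 20 nt on either side of each exonic crosslink, on the transcript strand. A listed 7mer stood in 135 of 349 member windows (38.7%, interval 33.5 to 44.0), against 37.9% of the 10502 windows of all protein-coding genes. A match starting 0 to 3 nt after the crosslinked base was held by 86 member windows (24.6%), against 24.6% of all windows. Every window, 349 of members and 10502 of all genes, had T at the crosslink, the base that 4-thiouridine replaces. That checks the coordinates and strand used here and is no evidence of binding. The share with a listed match was 34.0% of member windows in 2 libraries, 47.3% in 3, 51.6% in 4 and 56.2% in 5, against 33.5%, 46.2%, 50.2% and 55.2% of all windows. For members the intervals of 2 libraries (28.1 to 40.3) and 5 libraries (29.9 to 80.2) overlap. Matches were found in 79 of the 128 members with an exonic window (61.7%, interval 52.7 to 70.2), against 58.8% of such protein-coding genes.

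**Figure D4:**
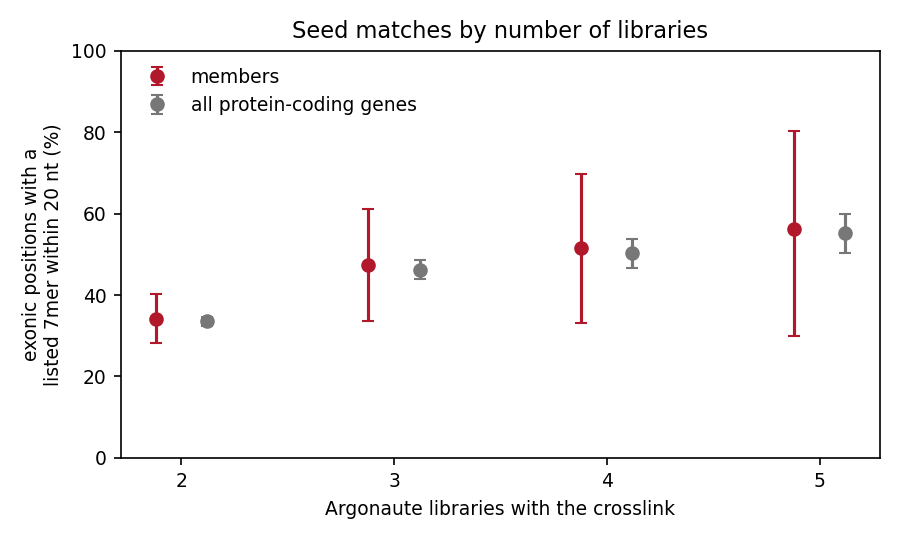
Share of exonic windows (percent, vertical axis) with a listed 7mer within 20 nt, by the number of Argonaute libraries that hold the crosslink (horizontal axis), for members (red) and all protein-coding genes (grey). Points are shares and lines exact 95% intervals; both series are higher at more libraries, from 34.0% to 56.2% for members.

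The place of the match was also close to that in all genes. Of 179 matches in members, 71 (39.7%) started 1 nt after the crosslinked base, against 40.0% in all protein-coding genes. Of the 133 matches in members that did not cover the crosslinked base, 75.9% lay after it, against 78.1% in all genes. There were 8mers at 65 of the 179 matches (36.3%), against 43.8% of all matches.

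**Figure D5:**
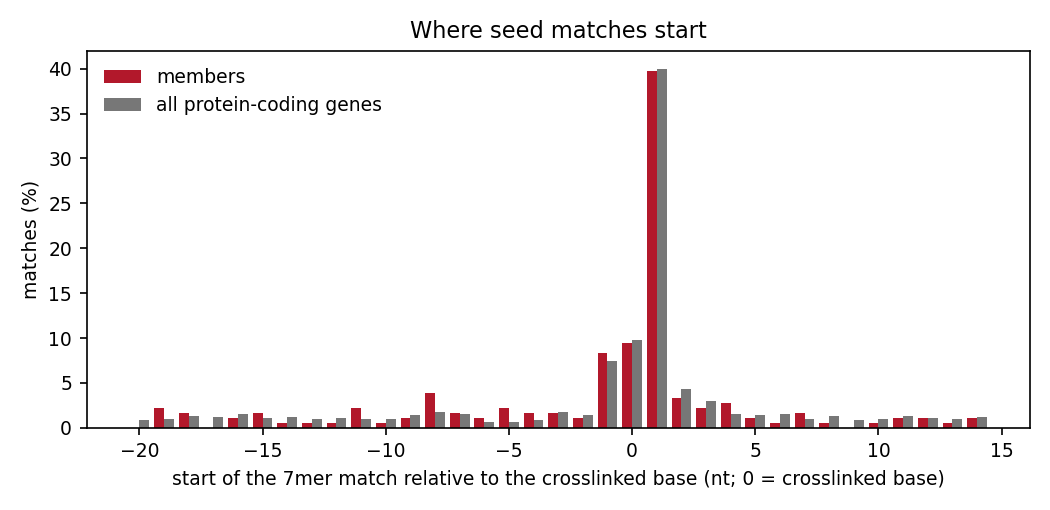
Start of each listed 7mer relative to the crosslinked base (nt, horizontal axis, 0 is the crosslinked base) as a share of matches (percent), for members (red) and all protein-coding genes (grey). In both, the highest bar is at 1 nt after the crosslink, 39.7% of matches in members and 40.0% in all genes.

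The families with most member windows were miR-17 (GCACTTT) with 15 windows (4.30%, against 3.76% of all), miR-15/miR-16 (TGCTGCT) with 14 (4.01%, against 3.03%) and miR-130 (TTGCACT) with 14 (4.01%, against 3.27%). They were followed by miR-181 (TGAATGT) with 13 (3.72%, against 3.45%), miR-19 (TTTGCAC) with 12 (3.44%, against 3.32%), miR-26 (TACTTGA) with 12 (3.44%, against 2.65%), miR-30 (TGTTTAC) with 10 (2.87%, against 2.44%) and miR-182 (TTGCCAA) with 10 (2.87%, against 2.12%). The miR-25/miR-92 match (GTGCAAT) stood in 9 windows (2.58%, against 1.68%), let-7 (CTACCTC) in 8 (2.29%, against 2.13%) and miR-9 (ACCAAAG) in 6 (1.72%, against 2.32%). All of these shares in all genes lie inside the intervals for members. These are counts of windows, and neighbouring windows can read the same match: the distinct matches in members were 14 for miR-17, 11 for miR-26, 9 for miR-30 and 8 for miR-25/miR-92. Of the 11 distinct miR-26 matches in members, 10 were 8mers (90.9%), against 68.6% in all genes. None of the 14 distinct miR-130 matches was an 8mer, against 21.1% in all genes. For miR-182, 4 of 11 were 8mers (36.4%, against 73.6%), and for miR-30, 3 of 9 (33.3%, against 60.6%). These families are a part of the 33 with a match in members. The counts are small and no intervals were computed for these shares. No member window held the miR-125 match (CTCAGGG), which allows a share of up to 0.860% (3 counts of 349, while the exact interval reaches 1.05%), against 0.552% of all windows. The miR-183 match (GTGCCAT) stood in 5 (1.43%, interval 0.467 to 3.31, against 0.543% of all), of which the pair in Klhl24 shared a single match. The families of miR-124 and miR-122 were not searched here.

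Of the 16 positions in all 5 libraries, 9 had a listed 7mer. Among them, matches starting 1 nt after the crosslinked base were those of miR-9 in Rnf167, miR-26 in Ube2j1, let-7 in Trim6, miR-25/miR-92 in Usp9x, miR-15/miR-16 in Klhl9 and miR-30 in Rnf6. The miR-19 match of Rnf111 started 3 nt after and the miR-182 match of Usp22 1 nt before it. The 7 without a listed 7mer lay in Usp25, Ube2e3, Trim32, Fbxo5, Klhl9 and Rnf111, the last with 2 of them. Matches of 6 bases to listed seeds stood near the crosslinked base at 5 of these 7, against 79 of 199 over all genes. In Fbxo5 (miR-182 and miR-96), Usp25 (miR-27) and Rnf111 at 233 nt (miR-101), an A opposite base 1 follows the 6 bases. Such 7mers were not counted in the main search. With so few positions, a difference from all genes is not shown.

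The study was made on the retinal role of miR-216b, and 8 of the 394 distinct miR-216 sites lay in members, in 8 genes. That is 5.67% of the crosslinked members (interval 2.48 to 10.9), against 6.84% of all crosslinked protein-coding genes. In members, 7 of 8 sites (87.5%) were in 3′ UTRs and 1 in an intron, against 51.3% of the 353 sites in all protein-coding genes in 3′ UTRs. With 8 sites and no interval computed for this share, a difference from all sites is not shown. The linked crosslink was found in 5 libraries at Rnf6, in 3 at sites that include Rnf2 and Ube2h, and in 2 at Trim2, Trim68, Usp33 and Klhl1. Read from sequence, 4 of the 7 exonic sites held a full 7mer of either microRNA, a count not made over all miR-216 sites. Rnf2 held an 8mer of miR-216b, Rnf6 a 7mer of miR-216b, and Trim68 and Usp33 7mers of miR-216a. Ube2h and Trim2 held offset 6mers, which pair with the seed without its first base, of miR-216b and miR-216a. The Klhl1 site is intronic, and its sequence was not read.

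At 4 of the 7 exonic sites another listed family started 0 to 4 nt after the same crosslink. The same count was not made over all miR-216 sites, so it is not shown to be particular to members. In Rnf6 it was miR-30, in Trim68 a miR-15/miR-16 8mer, in Ube2h a miR-26 8mer, and in Rnf2 the overlapping matches of miR-19, miR-130 and miR-17. The miR-216b match of Rnf2 started 16 nt before the crosslinked base. At Usp33 the miR-216a match started at the crosslinked base, and no other listed family was found there. Which microRNA was bound at a crosslink was not tested.

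Genes of the same pathway outside the prefixes were also crosslinked. A position was found in 6 of 12 E1 enzymes and ubiquitin genes, 17 of 23 further HECT ligases, 45 of 82 further RING and RING-between-RING ligases, 43 of 78 adaptors and regulators of cullin ligases, 17 of 30 further deubiquitinases and 10 of 30 proteasome subunits, against 22.1% of all protein-coding genes. Proteasome subunits had 11 positions in all, 1 of them in a 3′ UTR, while the further deubiquitinases had 43, with 32 in 3′ UTRs. Nedd4, a HECT ligase of neuronal growth, had 19 positions, none in more than 3 libraries, and Sae1, a subunit of the E1 enzyme of the related modifier SUMO, had 5 positions and 2 miR-216 sites. Both were named after their values were seen.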

How the data were processed

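The authors deposited a table of Argonaute crosslinks and a table of miR-216 sites in mm10. Per the file headers, a score in the crosslink list counts the samples that hold the crosslink. CASAVA 1.8.2, STAR and bedtools are listed in the submitters' processing notes, and no label or header states their settings. The miR-216 table has no header, and each of its 404 entries had an equally scored crosslink within 15 nt.

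Positions were placed on the same strand with GENCODE M21, with 3′ UTR ranked before coding sequence, then 5′ UTR, other exons and introns (Python 3.11.15). Sequence came from spliced transcripts, so intronic positions have none. Seed matches to 40 of 42 listed families (RefSeq microRNAs) were searched within 20 nt; the search was tested on simulated windows. Shares have exact 95% intervals (SciPy 1.17.1); no test was run. The members and lists were chosen with earlier results of these data known, and 2 symbols with these prefixes were left out, while 1 counted member and 1 window are not reported here. Named were members with a miR-216 site, with a position in 5 libraries, among the 15 with most positions or the 3 with most per prefix, and Rnf111 and Rnf6. Of the member positions, 17 also lay in an intron of another gene, and 2 of 349 windows occurred word for word in another gene. Fits of counts were not possible because the tables hold no reads.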

Additional observations from a re-analysis of the deposited data

How the results depend on the processing

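Of 21 alternatives to 7 results, 15 stayed within 1.5 times a reported count or inside the 95% interval of a reported share, and 6 did not. Keeping positions in 3 or more libraries left 69 members with a crosslink, a count not made here over all protein-coding genes. Of these member positions, 71.7% were in 3′ UTRs, and 50.0% of their windows held a listed seed match. In all protein-coding genes, 2409 of 3326 such positions were in 3′ UTRs. The share of all windows with a listed match was 46.2% in 3 libraries, 50.2% in 4 and 55.2% in 5. The share of windows with a listed match was 32.6% within 10 nt, 18.1% for 8mers alone and 51.9% when 7mers with an A opposite base 1 were counted too. Requiring a digit after every prefix except Ube2 and Ube3 left 140 members with a crosslink and 8 miR-216 sites. Leaving out positions shared with another gene, an alternative chosen after seeing the data, left 135 members and 63.8% in 3′ UTRs. No paired analysis was possible because the tables pool the libraries and carry no value of a single library, which also keeps single libraries from being left out. Without read depth or RNA abundance, a member absent from the table cannot be told apart from one whose RNA was scarce, and a position in 2 libraries from a weakly covered one.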
